A study of Homo sapiens with 2 samples.

Results

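The genes described here belong to the pathway of the tumour suppressor p53 and to the apoptosis machinery that it feeds: regulators and targets of p53, the BCL2 family, death receptors, caspases and the IAP genes that restrain caspases. A list of 50 such genes was matched to the array by symbol, and 47 of them had a probe set annotated to that symbol alone, of 18417 genes so measured in all. FDXR, which encodes ferredoxin reductase, had no probe set of its own symbol in the annotation used, and the probe sets of BCL2L2 and TNFRSF10C carry a second symbol, so these 3 have no gene-level value.

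The data were 2 microarray profiles of A549 cells, a human lung adenocarcinoma line that is known to retain wild-type p53. In both, RNA had been precipitated with an antibody against Argonaute2 (Ago2), the protein that carries microRNAs and holds their paired mRNAs. The cells of 1 array overexpressed miR-130b and those of the other had received an empty vector. The labels give no replicate, dose or time, and no array of RNA before precipitation was used here, so the amount of an mRNA and its share bound to Ago2 cannot be told apart.

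The apoptosis pathway has a mitochondrial and a receptor branch. In the mitochondrial branch, BH3-only proteins bind and neutralise the anti-apoptotic BCL2 proteins, which frees BAX and BAK1 to open the outer membrane, after which APAF1 and caspase-9 form the apoptosome. In the receptor branch, FAS and the TRAIL receptors recruit caspase-8 and caspase-10 at the plasma membrane. The transcription factor p53 induces genes of both branches together with genes of cell-cycle arrest and DNA repair, and MDM2, itself such a target, degrades p53 in a feedback loop.

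The overexpressed microRNA pairs with its targets mainly through its seed, bases 2 to 8 of the mature strand, and 2 of the 47 genes, BCL2L11 and TP53INP1, are reported targets of the miR-130 family. RefSeq's GRCh38.p14 table held 6 mature human miRNAs with the seed of miR-130b-3p. The sequences are those of miR-130b-3p, its relatives miR-301a-3p, miR-301b-3p and miR-454-3p, and the opposite strand of the miR-130b hairpin, with the seed in capitals. They show that the relatives share the seed while the opposite strand does not. Not printed are miR-3666 and miR-4295, and miR-130a-3p is a further relative of the family.
hsa-miR-130b-3p: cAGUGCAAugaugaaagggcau
hsa-miR-301a-3p: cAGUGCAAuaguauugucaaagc
hsa-miR-301b-3p: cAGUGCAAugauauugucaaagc
hsa-miR-454-3p: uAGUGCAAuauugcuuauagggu
hsa-miR-130b-5p: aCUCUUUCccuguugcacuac
The hairpin arms of miR-130b-3p and miR-130b-5p lie at chr22:21653354-21653375 and chr22:21653316-21653336 on the plus strand of that build. miR-301b-3p lies upstream on the same strand, at chr22:21653025-21653047.

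All levels are the deposited log2 expression values, and each difference is the miR-130b value minus the empty-vector value. With 1 array per group there is no replicate error and no test, so genes were counted past a fold of 1.5, which is 0.58 on the log2 scale. As a technical yardstick, the difference varied between probe sets of 1 gene with a pooled SD of 0.19 over 671 genes. Over the 356 such genes at or above the median level it was 0.16, and where the text gives 2 probe-set SDs it uses the wider value. That SD leaves out variation between cultures and precipitations. Each measured member had 1 probe set. The label check held, in that the probe set of MIR130B stood at 12.64 on the miR-130b array, against 6.66 on the empty-vector array. Of the epithelial markers KRT8, KRT18, KRT7, CDH1 and EPCAM, 4 of 5 lay at or above the median level of named genes (8.64), and EPCAM, at 6.80 with miR-130b and 0.20 above that with the empty vector, lay under it. CDH1, E-cadherin, stood at 11.49 with miR-130b and 12.61 with the empty vector, a larger difference (-1.12) than that of any member. The epithelial levels summed to 14.94 on the log2 scale with miR-130b and to 15.14 with the empty vector. Summed fibroblast markers stood at 10.16 with miR-130b and 9.86 with the empty vector. Leukocyte markers summed to 10.06 with miR-130b and 9.87 with the empty vector, and endothelial markers to 9.82 with miR-130b and 9.58 with the empty vector. In each of these 3 lists 1 marker reached the median level, and the part of such transcripts in the values below was not tested.

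Across the 47 genes, 23 were higher and 24 lower with miR-130b, with a median difference of -0.01, against 0.05 over all named genes. Of all 18417 named genes, 10785 were higher and 7480 lower. The counts of higher and lower genes in each list below are to be read beside that uneven background. BCL2L11 and TP53INP1 were the 2 genes at least 1.5-fold higher (4.26% of the 47), where 3.65% of all named genes were. GADD45A and CYFIP2 were the 2 genes at least 1.5-fold lower (4.26%), where 4.65% of all named genes were. These shares are close to the background of the array in both directions at the deposited scaling. After quantile normalization TNFRSF10D and CASP6 also passed upwards, which made 4 (8.51% of the members, beside 3.96% of all named genes). After centring on the median difference TNFRSF10B and MDM4 also passed downwards, which made 4 (8.51%, beside 5.50%). The 40 members whose mean of both arrays reached the median level of named genes included BCL2L11, TP53INP1, GADD45A and CYFIP2. So 2 of 40 passed each way, where 5.04% of named genes at that level passed 1.5-fold upwards and 5.87% downwards. BCL2L11 lay under that median (8.64) with the empty vector, at 8.46, and met the filter through its miR-130b value. The filtered upward count therefore gives no separate support. No member reached 2-fold in either direction, a size that 1.06% of all named genes passed upwards and 1.37% downwards. Just inside the 1.5-fold limit on the lower side lay CYFIP2, at -0.64. Just outside it lay TNFRSF10B at -0.58, TNFRSF10D and CASP6 at 0.57, MDM4 at -0.54 and APAF1 at 0.54.

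The middle of the distribution was wider among the members than among named genes at large. The members were chosen with earlier results of these data known, and the part of that choice in the width was not tested. Their median absolute difference was 0.29, against 0.17 over all named genes. For the 40 members at or above the median level it was 0.34, against 0.19 over the 9209 named genes at that level. A difference of at least 2 probe-set SDs (0.39) was found for 16 of the 47, 10 of them higher and 6 lower. That is 34.0% of the members, beside 17.9% of all named genes. Among other genes of the same pathways, described below, the share was 14.8%. Of the 40 members at or above the median level it was 40.0%, beside 23.4% of named genes at that level. BCL2L11, CASP6 and TP53I11 met that filter through their miR-130b values, so the filtered values are no separate support. The central 50% of the members ran from -0.32 to 0.22, and that of all named genes from -0.13 to 0.20. With the SD of genes at or above the median level (2 SDs of 0.33), 22 of all 47 members lay beyond it (46.8%). The share was 23.4% of all named genes and 29.6% of named genes at that level. The 6 added genes were BCL2, BCL2L13, PMAIP1, FAS, TNFRSF10A and BIRC2, each of them lower. Without BCL2L11 and TP53INP1 the share beyond 2 probe-set SDs was 31.1%.

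**Figure D1:**
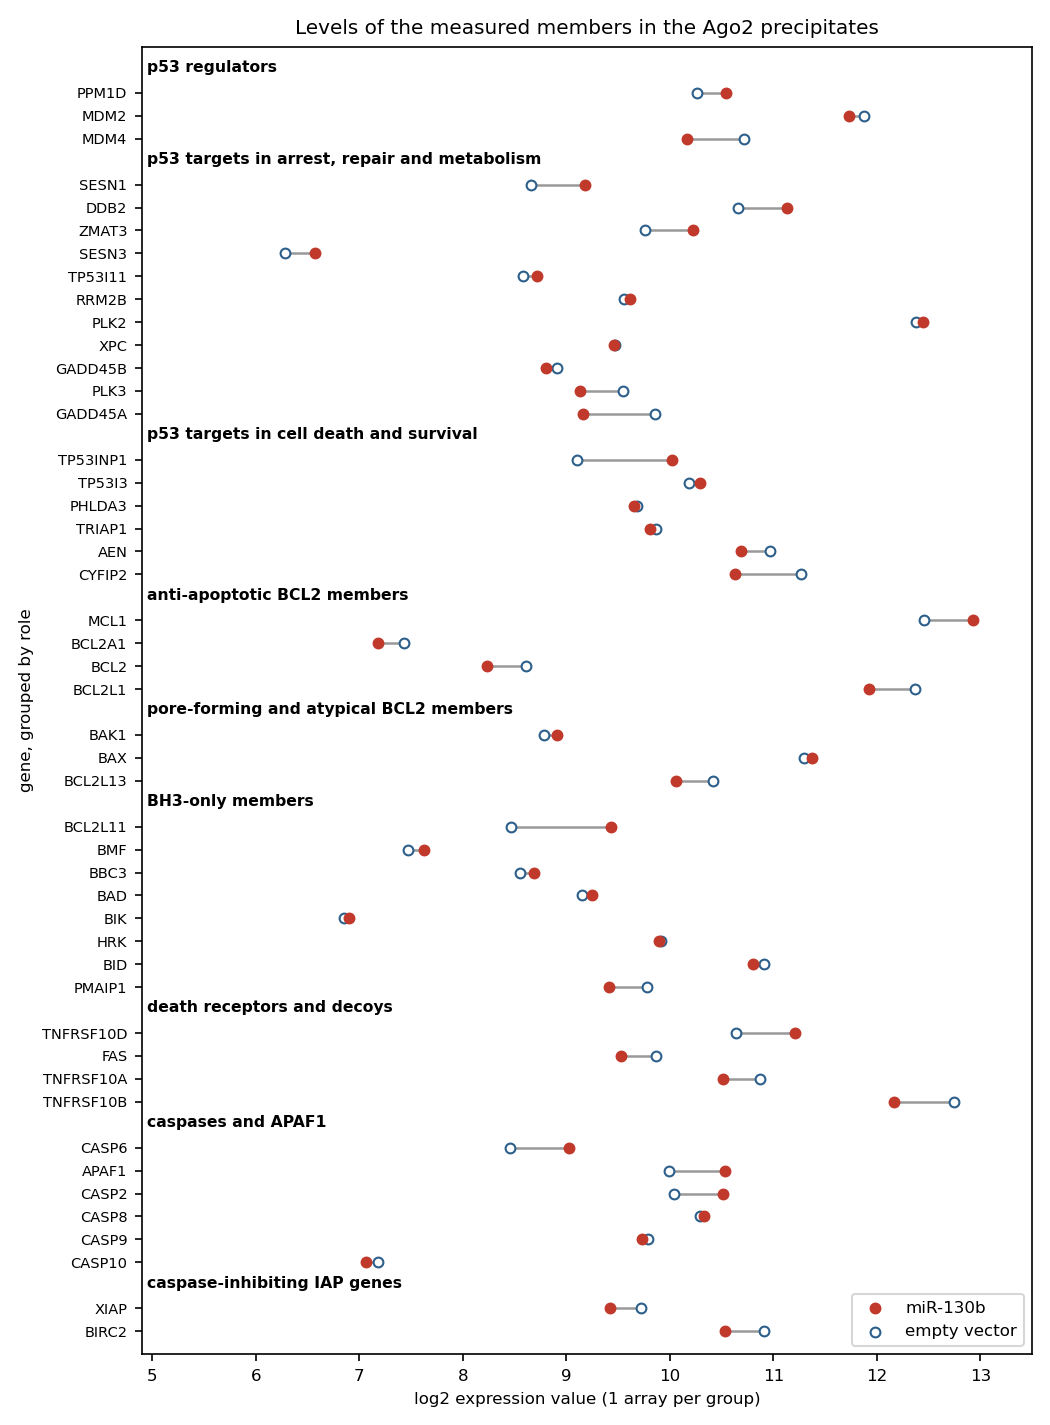
Levels of the 47 measured genes on each array (x axis, log2 expression value), grouped by role on the y axis, with filled points for miR-130b, open points for the empty vector and 1 array per group. The widest gaps are those of BCL2L11 (9.43 and 8.46) and TP53INP1 (10.02 and 9.10), both to the right with miR-130b.

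Among the regulators of p53, MDM4 stood apart from its relative MDM2. MDM4, which binds p53 and inhibits its transcriptional activity, stood at 10.17 with miR-130b and at 10.71 with the empty vector, a difference of -0.54. MDM2, the ubiquitin ligase that degrades p53, stood at 11.73 with miR-130b and 11.88 with the empty vector, a difference of -0.14 that is smaller than the probe-set SD. PPM1D, the phosphatase WIP1 that switches off the damage response, stood at 10.55 with miR-130b and 10.26 with the empty vector. The difference of MDM2 exceeded that of MDM4 by 0.40, and that of PPM1D exceeded it by 0.83. Of the 3 regulators, MDM4 alone lay beyond 2 probe-set SDs.

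The p53 targets of arrest, repair and metabolism went both ways, with 7 of 11 higher and 4 lower and a median of 0.07. SESN1, a sestrin that restrains growth signalling under stress, stood at 9.18 with miR-130b and 8.66 with the empty vector, 1.44-fold higher. DDB2, a damage-recognition subunit of nucleotide excision repair, stood at 11.13 with miR-130b and 10.66 with the empty vector, a difference of 0.47. ZMAT3, an RNA-binding zinc-finger protein, also differed by 0.47, with 10.23 on the miR-130b array and 9.76 on the empty-vector array. These 3 of the 11 targets were each higher by more than 2 probe-set SDs, as were 1584 of all 18417 named genes.

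GADD45A, a stress sensor that binds PCNA and inhibits CDK1, had the lowest difference of the 47 genes, -0.69. It stood at 9.17 with miR-130b and 9.85 with the empty vector, 1.61-fold lower. PLK3, a stress-responsive polo-like kinase, stood at 9.13 with miR-130b and 9.55 with the empty vector, a difference of -0.41. Their close relatives differed less. GADD45B differed by -0.11 (8.80 with miR-130b and 8.91 with the empty vector), and PLK2 by 0.06 (12.44 with miR-130b and 12.38 with the empty vector). XPC, the lesion-binding factor of nucleotide excision repair, differed by -0.01 and RRM2B, the p53-inducible ribonucleotide reductase subunit, by 0.07. TP53I11 differed by 0.14. SESN3, a sestrin known mainly as a FOXO target, differed by 0.29 at a level below the median of named genes (6.57 with miR-130b and 6.28 with the empty vector). The difference of SESN1 exceeded that of GADD45A by 1.21, although both are textbook p53 targets.

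Of the p53 targets that act in cell death and survival, 2 of 6 were higher and 4 lower, with a median of -0.05. TP53INP1, a nuclear protein that promotes p53-dependent death and autophagy, stood at 10.02 with miR-130b and 9.10 with the empty vector. It was 1.90-fold higher, and its difference of 0.92 exceeded that of 98.6% of all named genes. CYFIP2, a subunit of the actin-regulating WAVE complex that p53 induces, lay at the other end, with 10.63 on the miR-130b array and 11.27 on the empty-vector array. It was 1.56-fold lower. AEN, an apoptosis-enhancing nuclease, stood at 10.68 with miR-130b and 10.97 with the empty vector. The others differed by less than the probe-set SD: TP53I3, an oxidoreductase, by 0.11, PHLDA3, an inhibitor of AKT, by -0.03, and TRIAP1, a mitochondrial lipid-transfer factor that promotes survival, by -0.06.

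The promoters of these genes were searched for the p53 decamer, the sequence that a pair of p53 subunits binds. The search covered the 250 bases before each annotated start in RefSeq's GRCh38.p14 table, and because the motif reads alike on both strands 1 strand covered both. Of 67 promoters of 38 members in the table, 8 held a match (11.9%), against 5.57% of all 35116 promoters. No member promoter held 2 such matches separated by at most 13 bases, as 0.03% of all promoters did. The search allowed no mismatch, so an imperfect decamer beside a match was not counted. Windows of 30 bases from 4 genes known as p53 targets show where the decamer (in capitals) lies. These genes differed by 0.52 (SESN1), 0.06 (PLK2), -0.29 (AEN) and -0.34 (FAS), and SESN1 alone lay beyond 2 probe-set SDs. The part of a decamer in these differences was not tested.
SESN1: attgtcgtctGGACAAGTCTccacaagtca
PLK2: tggcgggacaAGACTTGCTTcccggccacg
AEN: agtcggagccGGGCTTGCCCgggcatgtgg
FAS: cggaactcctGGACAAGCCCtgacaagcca
The windows lie at chr6:109009018-109009047 (SESN1, minus strand), chr5:58460199-58460228 (PLK2, minus strand), chr15:88621296-88621325 (AEN, plus strand) and chr10:88991299-88991328 (FAS, plus strand). BAK1, CASP8 and CASP9 also had a match, with differences of 0.12, 0.05 and -0.06. The remaining match, in the promoter of a gene from the lists of p53 targets, is not reported here. A match is a description of the letters and shows no binding.

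Within the BCL2 family, the anti-apoptotic members were split. BCL2L1, which encodes BCL-XL, stood at 11.92 with miR-130b and 12.37 with the empty vector, 1.36-fold lower. BCL2, the founding member, stood at 8.23 with miR-130b and 8.61 with the empty vector, a difference of -0.38 at a level below the median of named genes. BCL2A1, also below that median, stood at 7.18 with miR-130b and 7.43 with the empty vector. MCL1, a short-lived survival protein, went the other way, with 12.93 on the miR-130b array and 12.46 on the empty-vector array, 1.39-fold higher. Its difference exceeded that of BCL2L1 by 0.92. The median of the 4 measured genes was -0.31 and that of the 2 at or above the median level, BCL2L1 and MCL1, was 0.02.

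The proteins that open the mitochondrial membrane differed little in their mRNAs. BAX stood at 11.37 with miR-130b and 11.30 with the empty vector, and BAK1 stood at 8.91 with miR-130b and 8.79 with the empty vector. Both differences, 0.07 and 0.12, were smaller than the probe-set SD. BCL2L13, an atypical relative known also as a mitophagy receptor, stood at 10.06 with miR-130b and 10.41 with the empty vector, a difference of -0.35.

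BCL2L11 stood apart from the other BH3-only genes. It encodes BIM, which binds all the main anti-apoptotic BCL2 proteins, and it stood at 9.43 with miR-130b and 8.46 with the empty vector. This was 1.96-fold higher, the largest difference of the 47 genes (0.97), and it exceeded that of 98.8% of all named genes. The 7 other BH3-only genes had a median of 0.04 and ran from -0.37 to 0.15, all within 2 probe-set SDs over all genes. At the low end was PMAIP1, the p53-induced gene of NOXA, which neutralises MCL1, with 9.41 on the miR-130b array and 9.78 on the empty-vector array. BBC3, the p53-induced gene of PUMA, stood at 8.69 with miR-130b and 8.55 with the empty vector, and its difference of 0.14 was smaller than the probe-set SD. BMF, which is tethered to the cytoskeleton, differed by 0.15, BAD, a sensor of survival signalling, by 0.10, BIK by 0.04, HRK by -0.02 and BID, which links the receptor branch to mitochondria, by -0.11. BMF, BIK and BBC3 lay below the median level of named genes.

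Set against the genes whose proteins it neutralises, the difference of BCL2L11 exceeded that of BCL2L1 by 1.41, that of BCL2 by 1.35 and that of MCL1 by 0.49. The 10 pro-apoptotic members (the BH3-only genes with BAX and BAK1) had a median of 0.09, with 7 higher and 3 lower, and BCL2L11 was the 1 of them beyond 2 probe-set SDs. Of the 4 measured anti-apoptotic genes, MCL1 was higher and BCL2L1 lower by more than that limit.

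**Figure D2:**
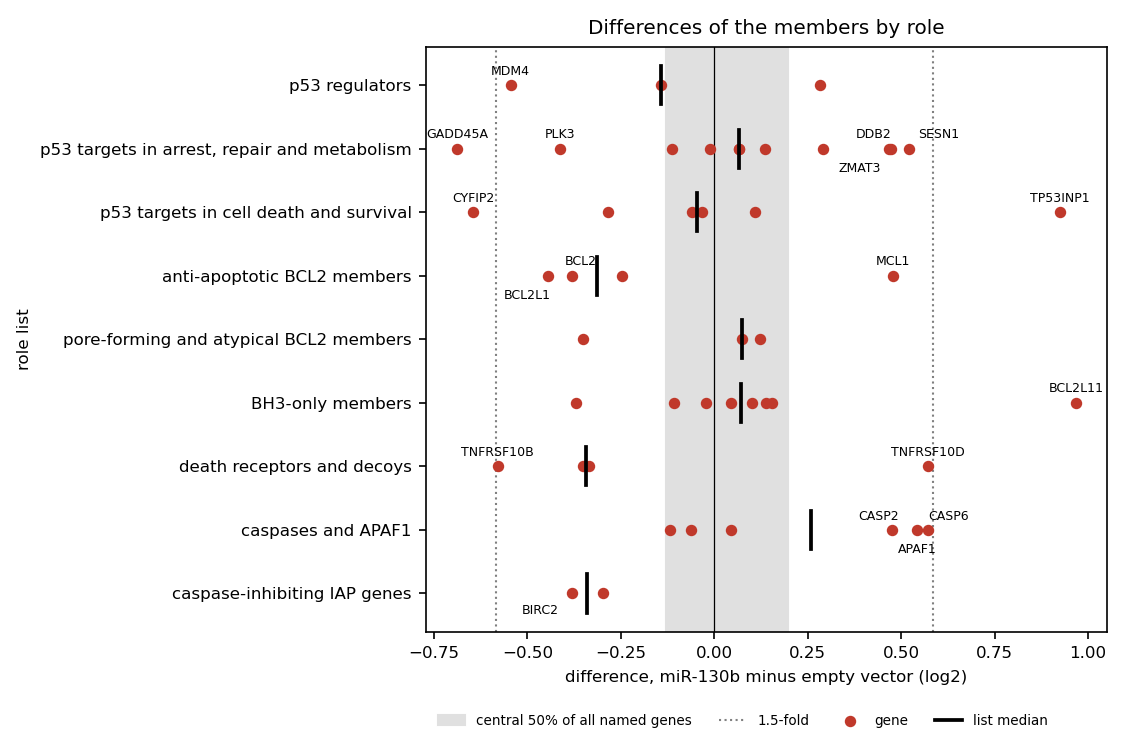
Difference of each measured gene (x axis, log2, miR-130b minus empty vector) by role list (y axis), with the list median as a black bar, the central 50% of all named genes as a grey band and dotted lines at 1.5-fold. BCL2L11 (0.97) and TP53INP1 (0.92) lie alone on the right, and GADD45A (-0.69) and CYFIP2 (-0.64) lie past the left line.

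Among the 4 measured receptors of the list, FAS, TNFRSF10A and TNFRSF10B had lower values with miR-130b and the decoy TNFRSF10D a higher one. Of death receptors outside the list, TNFRSF1A differed by 0.45, TNFRSF25 by 0.09 and TNFRSF21 by -0.01. TNFRSF10B, the TRAIL receptor DR5, stood at 12.17 with miR-130b and 12.75 with the empty vector, 1.49-fold lower. TNFRSF10A, the TRAIL receptor DR4, stood at 10.52 with miR-130b and 10.87 with the empty vector, a difference of -0.35. FAS, the receptor of FAS ligand, stood at 9.53 with miR-130b and 9.86 with the empty vector, a difference of -0.34. TNFRSF10D, a TRAIL receptor with a truncated death domain that acts as a decoy, stood at 11.21 with miR-130b and 10.64 with the empty vector, 1.49-fold higher.

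The differences of TNFRSF10A and FAS lay within 2 probe-set SDs over all genes, and those of TNFRSF10B and TNFRSF10D beyond them. The difference of TNFRSF10D exceeded that of TNFRSF10B by 1.15, that of TNFRSF10A by 0.92 and that of FAS by 0.91. The 4 TNFRSF10 genes are direct neighbours in RefSeq's order of protein-coding genes, so the opposite differences of TNFRSF10B and TNFRSF10D arose within 1 gene cluster. DDIT3, the stress-induced transcription factor CHOP, which is known to induce TNFRSF10B, stood at 9.47 with miR-130b and 11.96 with the empty vector. It was named after its value was known, and its part in the TNFRSF10B difference was not tested.

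Of the caspases and APAF1, 3 of 6 were higher with miR-130b by more than 2 probe-set SDs. Of all 18417 named genes 1584 were, and of the 9209 at or above the median level 1016 were. CASP6, an executioner caspase, stood at 9.02 with miR-130b and 8.45 with the empty vector, 1.49-fold higher. APAF1, the scaffold of the apoptosome and a p53 target, stood at 10.53 with miR-130b and 9.99 with the empty vector, 1.46-fold higher. CASP2, the caspase of the PIDDosome, stood at 10.51 with miR-130b and 10.04 with the empty vector, a difference of 0.47. These 3 genes belong to different steps of the cascade.

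The 3 other measured caspases of the list, which are initiators as CASP2 is, differed less. CASP9, the partner of APAF1, stood at 9.73 with miR-130b and 9.79 with the empty vector. CASP8 stood at 10.33 with miR-130b and 10.29 with the empty vector, and CASP10, at a level below the median of named genes, stood at 7.06 with miR-130b and 7.18 with the empty vector. These 3 differences were smaller than the probe-set SD. The list median was 0.26, and 0.47 over the 5 genes at or above the median level. CASP6 is among these 5 through its miR-130b value, as its empty-vector value lay under that level (8.64). The higher median is therefore no separate support.

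Both IAP genes of the list had lower values with miR-130b. Of other genes of that family, BIRC5 differed by 0.36, BIRC7 by 0.03 and BIRC6 by -0.01. BIRC2, the ubiquitin ligase cIAP1 of TNF receptor signalling, stood at 10.53 with miR-130b and 10.91 with the empty vector, a difference of -0.38. XIAP, which binds and blocks caspases directly, stood at 9.43 with miR-130b and 9.73 with the empty vector, a difference of -0.30. Neither reached 2 probe-set SDs over all genes. The difference of APAF1 exceeded that of XIAP by 0.84.

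**Figure D3:**
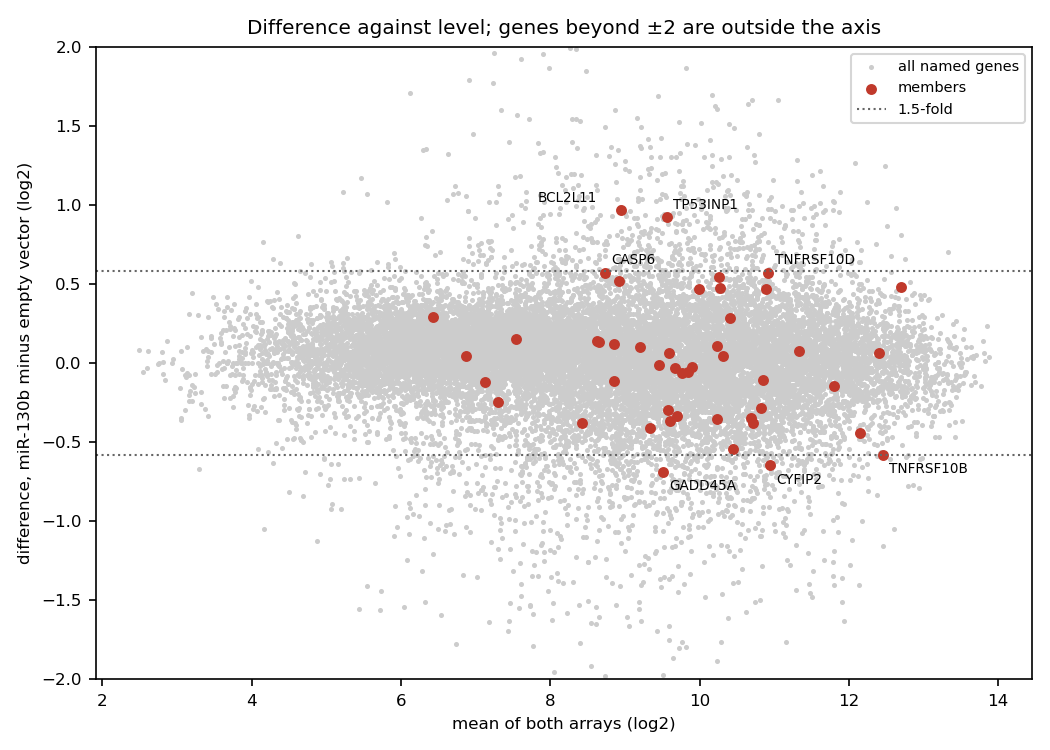
Difference (y axis, log2, miR-130b minus empty vector) against the mean of both arrays (x axis, log2) for all named genes in grey and the 47 members in red, with dotted lines at 1.5-fold. The axis ends at 2 in each direction, which leaves 48 named genes outside, and the members with the largest differences have neighbours of similar level and difference among the grey points.

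Other genes of these pathways were taken from lists that do not overlap with the members, and 54 of the 61 genes were measured. A fold of 1.5 was passed by 2 of these 54 upwards and by 2 downwards, beside 3.65% and 4.65% of all named genes. The median of the 54 was 0.01. A share of 14.8% lay beyond 2 probe-set SDs, under the 17.9% of all named genes.

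The other p53 pathway genes had a median of -0.10 (20 measured, 9 higher and 11 lower). SESN2, the stress-induced sestrin, had the largest decrease, with 8.52 on the miR-130b array and 9.93 on the empty-vector array, 2.65-fold lower. EDA2R, a p53-induced receptor of ectodysplasin, was 1.91-fold lower (9.65 with miR-130b and 10.59 with the empty vector), and SPATA18, a p53-induced factor of mitochondrial quality control, differed by -0.56. PCNA, the replication clamp, was 1.89-fold higher (11.85 with miR-130b and 10.94 with the empty vector). CDKN1A, the p21 inhibitor through which p53 arrests the cell cycle, stood at 9.46 with miR-130b and 9.81 with the empty vector, a difference of -0.35. SESN1 and SESN2 thus lay on opposite sides of the empty-vector values within 1 family.

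The list of other BCL2 relatives and binding partners had a median of 0.18 (11 measured, 8 higher and 3 lower), with none past 1.5-fold. Its highest genes were the partners BAG3, a co-chaperone that supports survival (0.49), BCLAF1 (0.38) and BAG1 (0.255). The partner BECN1 differed by -0.20. The median is therefore not that of BCL2 family members alone. The other death receptor and caspase genes had a median of 0.01 (23 measured, 12 higher and 11 lower). TNFRSF1A, the main TNF receptor, was highest among those at or above the median level. TNFSF10, the ligand TRAIL, was named after its values were seen and lay below that level, with 7.01 on the miR-130b array and 5.66 on the empty-vector array, a difference of 1.36.

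**Figure D4:**
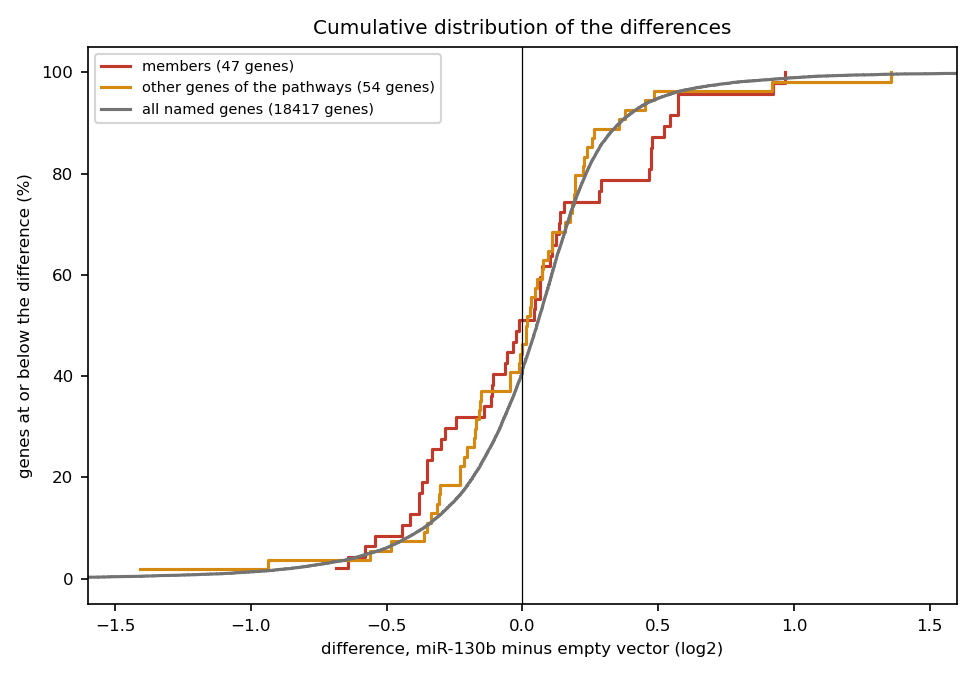
Cumulative share of genes (y axis, percent) at or below each difference (x axis, log2, miR-130b minus empty vector) for the 47 members, the 54 other genes of the pathways and all 18417 named genes. The curve of the members is flatter around 0, with quartiles at -0.32 and 0.22, against -0.13 and 0.20 for all named genes.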

How the data were processed

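The deposited log2 expression values of 33297 probe sets on each of 2 arrays (1 per group) were used as given. Per the labels, biotinylated whole-transcript cDNA was hybridised to an Affymetrix array, and the range of 1.95 to 14.2 points to a log2 scale. No source used here gives the software, background correction or normalization, and the medians of both arrays were nearly equal (7.77 each), so differences are relative to the other probe sets. The extraction text of the labels describes tissue although both samples are a cell line.

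Probe sets were named through the platform annotation. Of 33297, 19460 had 1 symbol, 1754 had several and 12083 were unnamed here. Entrez identifiers gave the current RefSeq symbol for 19429. Averaging probe sets per gene left 18417 genes. All 50 members are named, with the context genes CDKN1A, the 3 largest differences each way among context genes at or above the median level (8.64), and MIR130B. The text also names CDH1, TNFRSF25, TNFRSF21, BIRC5, BIRC6, BIRC7, BAG1, BCLAF1 and BECN1, chosen after their values were seen. Some other genes of the naming rule are not reported here. The members and lists were chosen with earlier results of these data known. No test was possible with 1 array per group. Calculations used Python 3.11.15, pandas 2.3.3 and limma 3.58.1 in R 4.3.3, and the counting steps were tested on simulated data. The alternatives were filters on level (at or above the median, or the 75th percentile), centring, quantile normalization, cyclic loess, the brightest probe set, a fold of 2 and the mean of a list. The number of arrays limits the precision.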

Additional observations from a re-analysis of the deposited data

Results flagged for a closer look

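The probe set that TNFRSF10C, a TRAIL decoy receptor, shares with a second symbol lies outside the gene-level comparison and was looked at because its signal was above that of the empty vector. It stood at 7.56 with miR-130b and 7.36 with the empty vector, a difference of 0.20, close to the probe-set SD of 0.19. The probe set that BCL2L2, an anti-apoptotic gene, shares with a read-through transcript stood at 8.78 with miR-130b and 9.23 with the empty vector, a difference of -0.45.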

How the results depend on the processing

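Of the 47 members, 43 kept the sign of their difference under every setting in which they were recomputed, and BIK, CASP8, HRK and XPC, all near 0, did not. None of 243 recomputed member differences moved by more than the probe-set SD, but many of them could not move. A level filter leaves a gene's value as it is, and so does the brightest probe set, as each member had 1 probe set. Centring shifted every member by the same 0.05. Only quantile normalization and cyclic loess could move members by different amounts. BCL2L11 ran from 0.91 to 0.98 and TP53INP1 from 0.87 to 0.97. The count of members at least 1.5-fold higher, 2 as reported, was 4 after quantile normalization (8.51%, beside 3.96% of all named genes), and the count of those at least 1.5-fold lower, also 2, was 4 after centring on the median difference (8.51%, beside 5.50%). With a fold of 2 both counts were 0. Under a level filter at the 75th percentile, which leaves 15 members, the counts were 0 higher and 1 lower (beside 187 and 229 of 4605 genes), and the medians were 0.27 for p53 targets of arrest, repair and metabolism, -0.46 for those of cell death and survival and 0.017 for anti-apoptotic BCL2 genes, each over 2 genes. With the filter at the median level, the anti-apoptotic median was 0.017 and that of caspases with APAF1 was 0.47. CASP6, at 8.45 with the empty vector, met that filter through its miR-130b value. The median difference of all named genes was 0.05 as deposited, 0.06 after quantile normalization and 0.03 after cyclic loess. The narrower probe-set SD, chosen after seeing the data, put 22 members in place of 16 beyond 2 SDs. No paired analysis was possible because each group has 1 array, and for the same reason no replicate could be left out.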
